A study of Mus musculus with 8 samples.

Results

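Interferon-stimulated genes are the transcripts that cells switch on when an interferon binds its receptor, and 39 of them were followed here in mouse kidney. They were chosen by name as a module of antiviral and antigen-processing genes. A member counted as measured where a probe set of the array named it and no other gene, and where several did so, the one that was brightest on average across the 8 arrays stood for it. This gave 36 measured members out of 19936 measured genes. Isg15 and Gbp2 were read only by probe sets that also name a second gene, and Ifi44 was not analysed here.

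The study took whole kidneys of female mice on a mixed C57BL/6 - SV127 background. The 4 arrays labelled mutant held RNA of mice with the genotype Pax8-rtTA;LC-1;Vhl-floxed, and the 4 arrays labelled control held RNA of littermates whose genotype is given only as control. In this system doxycycline lets rtTA, driven by the Pax8 promoter, turn on the Cre of LC-1 in tubule epithelium, so vessels and immune cells of the kidney are not its target. The product of Vhl targets the oxygen-regulated subunits of HIF, the hypoxia-inducible factor, for destruction. Whether the littermates carried a transgene or floxed Vhl is not given. Mice of both groups drank doxycycline (0.2 mg/ml, with 5% sucrose) from 3 weeks of age for 2 weeks, went back to water without it for 1 week and were 6 weeks old when their kidneys were taken. Values are log2 expression levels as deposited, and each array is a separate mouse. Nothing in a whole-kidney level separates fewer cells of a type from less RNA per cell.

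Type I interferons (alpha and beta) bind the receptor pair Ifnar1 and Ifnar2. The kinases behind it activate STAT2, which acts with IRF9 in a complex that binds the interferon-stimulated response element (ISRE) near target genes. Interferon gamma binds Ifngr1 and Ifngr2 and acts mainly at gamma-activated sites (GAS); the immunoproteasome, the peptide transporter Tap1 and the GTPases of the Gbp family answer strongly to it. In kidney, tubule cells, endothelium and resident macrophages can all respond.

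The labels were checked on the targeted gene. Vhl read 8.25, 8.32, 8.46 and 8.33 on labelled mutant arrays 1 to 4 and 8.01, 7.99, 7.96 and 8.22 on labelled control arrays 1 to 4. It was thus higher, not lower, under the mutant label, by 0.29 on the log2 scale (limma adjusted p = 0.0387). The groups did not overlap, and an exact permutation test, two-sided, gave p = 0.0286, the lowest value possible with 4 arrays a group. With the replicate block its limma adjusted p was 0.0558, and the call was also lost in 6 of the 8 fits that left out 1 array (0.0785 to 0.114). The sources used here do not give the part of the transcript that this probe set reads. If it lies outside the deleted part, it checks nothing. All 10 genes of a short HIF response list were lower under the mutant label at a limma adjusted p under 0.05, against 4.64% of all genes. Among them were Egln3, a prolyl hydroxylase that HIF induces (log2 difference -2.96), and Car9, a carbonic anhydrase (-2.88). Every direction below is therefore a direction between labels, and none is given as an effect of losing Vhl. Median levels were 7.55 to 7.58 on all arrays, and the lower quartile was highest (6.283 and 6.281, others 6.21 to 6.265) and the upper quartile lowest (9.082 and 9.087, others 9.113 to 9.158) on labelled mutant arrays 1 and 2.

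Promoter windows show what the module shares in sequence. RefSeq windows on GRCm38.p6, 250 bases before to 50 after a start site, were held for 29 of the 39 members. The ISRE core was searched on both strands as GAAA, any 2 bases and GAAA again, where overlapping matches each count. It stood in the windows of 13 of the 29 members (44.8%) and in those of 3.99% of all 27025 genes in the table (3.44% of all windows). The GAS form TTCNNNGAA, which reads the same on both strands, stood in 7 of the 29 members (24.1%) and in 9.55% of all genes. The stretches from 150 bases before the start to the base before it are printed for Rsad2, Trim30a and Isg20, which were lower under the mutant label, for Gbp3, which was higher, and for Ifit1, which was not called. Capitals mark ISRE cores, here all in the reverse orientation, and in Isg20 the GAS form. The stretches lie at chr12:26456453-26456602 (minus strand) for Rsad2, chr7:104465194-104465343 (minus strand) for Trim30a, chr3:142559894-142560043 (plus strand) for Gbp3, chr19:34640739-34640888 (plus strand) for Ifit1 and chr7:78913274-78913423 (plus strand) for Isg20. Trim30a, Gbp3 and Isg20 have more than 1 window, and the first one listed was taken.
Rsad2: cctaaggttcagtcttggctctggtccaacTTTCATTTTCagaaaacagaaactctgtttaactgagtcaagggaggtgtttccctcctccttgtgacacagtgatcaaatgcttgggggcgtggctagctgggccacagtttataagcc
Trim30a: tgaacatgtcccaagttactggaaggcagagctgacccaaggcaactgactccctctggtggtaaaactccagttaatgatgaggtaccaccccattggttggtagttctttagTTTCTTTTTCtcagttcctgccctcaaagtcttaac
Gbp3: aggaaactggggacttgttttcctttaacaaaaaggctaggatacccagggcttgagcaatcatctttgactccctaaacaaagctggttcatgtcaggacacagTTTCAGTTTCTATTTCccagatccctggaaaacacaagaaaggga
Ifit1: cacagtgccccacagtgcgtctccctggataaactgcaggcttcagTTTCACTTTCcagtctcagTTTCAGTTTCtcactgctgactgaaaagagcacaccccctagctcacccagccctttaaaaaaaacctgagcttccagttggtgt
Isg20: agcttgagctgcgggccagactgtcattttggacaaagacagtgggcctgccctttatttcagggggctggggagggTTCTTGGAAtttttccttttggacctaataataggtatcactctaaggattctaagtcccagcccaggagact
The cores of Gbp3 overlap, and Ifit1 has a pair set apart. Of the 5 members in the table that were lower under the mutant label 2 had the core, Rsad2 and Trim30a, and so did Gbp3. The 11 measured members with a core had a median log2 difference of -0.05 and the 15 without one -0.19. A match describes letters in this window and is not a measured binding site.

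Under the mutant label 6 of the 36 members were lower (Rsad2, Isg20, Trim30a, Xaf1, Dhx58 and Cmpk2) and 1 was higher (Gbp3), while 29 did not pass the test. Calls were made at a limma adjusted p under 0.05 over all genes, a test that called 4.64% of all 19936 genes lower and 2.59% higher. The 4 labelled mutant arrays lay wholly below the 4 labelled control arrays for 7 members, the 6 lower ones and Oasl1, and wholly above them for 0, against 8.2% and 6.57% of all genes. The median log2 difference of the members was -0.14, and of all genes 0.03. It was negative for 26 of 36 members and for 41.9% of all genes.

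Arrays of the same number in both groups deviated together weakly over all genes, so the number was also fitted as a block. The block was thus taken from these same values. With the replicate block 10 members were lower and 1 higher, against 5.27% and 3.04% of all genes. The block added Irf7, Oasl1, Oasl2 and Rtp4, and no call was lost. Of the members, 13 were lower in all 4 same-numbered pairs and 1, Gbp3, was higher in all 4, against 16.1% and 17.9% of all genes.

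**Figure D1:**
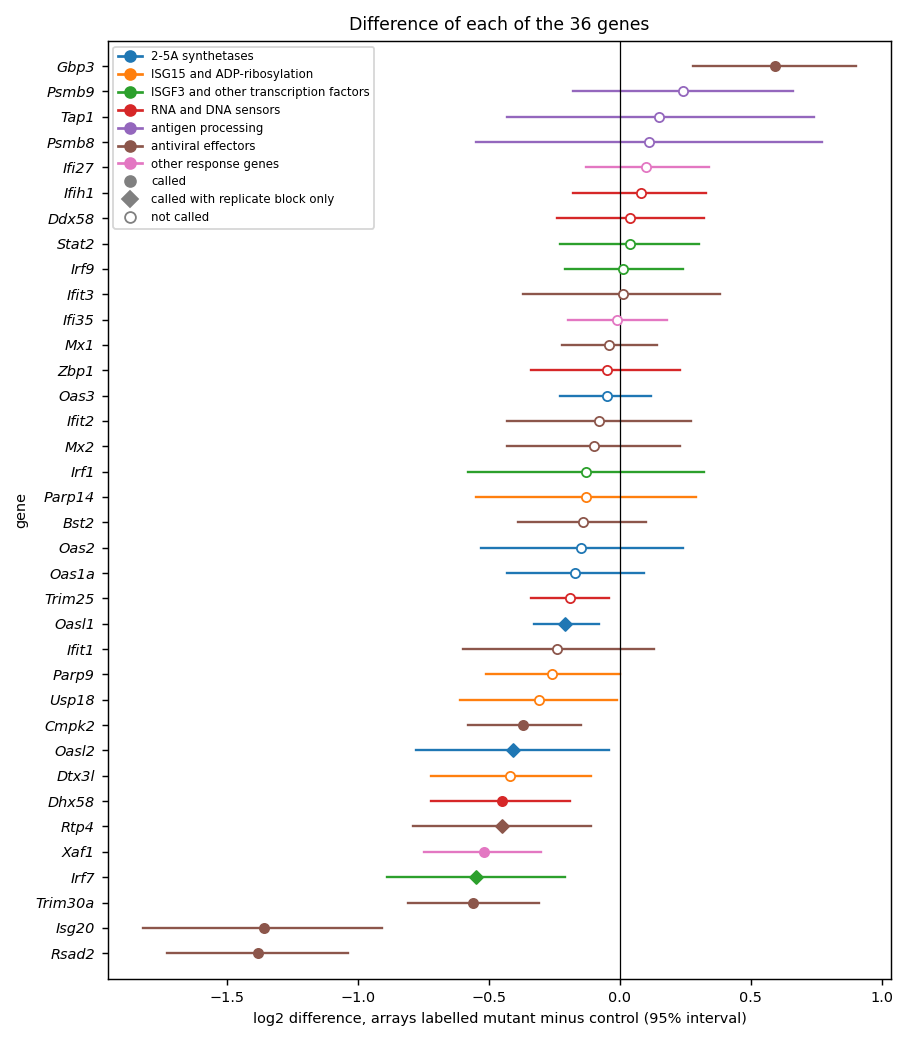
The log2 difference between arrays labelled mutant and control (x axis) is drawn for each of the 36 genes (y axis) with its 95% interval from limma, coloured by role. Rsad2 and Isg20 stand apart at -1.38 and -1.36, Gbp3 is highest at 0.59, and filled circles mark genes called, diamonds those called with the replicate block only.

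The antiviral effectors held both large falls and the rise. Rsad2 encodes viperin, an enzyme that makes a chain-terminating nucleotide against viral polymerases. It read 8.55, 8.72, 8.15 and 8.10 on labelled mutant arrays 1 to 4 and 9.79, 10.06, 9.70 and 9.51 on labelled control arrays 1 to 4. Every labelled mutant array was below every labelled control array. Rsad2 was 2.61-fold lower (log2 difference -1.38, SE 0.155, limma adjusted p = 0.000831), and the 4 pairs differed by -1.24, -1.34, -1.55 and -1.40.

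Cmpk2, a nucleotide kinase of mitochondria, is the next protein-coding gene to Rsad2 on chromosome 12. Its labelled mutant arrays read 8.24, 8.24, 8.26 and 7.91 and its labelled control arrays 8.49, 8.53, 8.71 and 8.39. The groups did not overlap, but the difference was smaller than that of its neighbour, 1.29-fold lower (log2 difference -0.37, SE 0.0950, limma adjusted p = 0.0470). The call was lost when any 1 array other than labelled control array 4 was left out (limma adjusted p 0.0604 to 0.126).

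Isg20 encodes an exonuclease that degrades RNA. On labelled mutant arrays 1 to 4 it read 8.48, 8.67, 8.19 and 8.64, and on labelled control arrays 1 to 4 it read 9.98, 10.45, 9.62 and 9.40. All labelled mutant values were lower, while the labelled control values were spread over more than 1 log2 unit. The fold was 2.57 (log2 difference -1.36, SE 0.203, limma adjusted p = 0.00362). Rsad2 and Isg20 passed in all 17 alternative settings (limma adjusted p up to 0.00563 and 0.0254).

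Trim30a, a TRIM-family ubiquitin ligase that restrains Toll-like receptor signalling, read 8.47, 8.22, 8.14 and 8.01 under the mutant label. Under the control label it read 8.75, 8.84, 8.97 and 8.53. The lowest labelled control array lay just above the highest labelled mutant array. It was 1.48-fold lower (log2 difference -0.56, SE 0.112, limma adjusted p = 0.0146). Without labelled mutant arrays 3 and 4 its limma adjusted p was 0.0711.

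Xaf1, which binds an inhibitor of apoptosis, is not an effector in the narrow sense but followed the same order. It read 8.30, 8.09, 8.07 and 8.02 under the mutant label and 8.71, 8.85, 8.66 and 8.38 under the control label. The groups did not overlap, and the gene was 1.44-fold lower (log2 difference -0.52, SE 0.101, limma adjusted p = 0.0123). Without labelled mutant arrays 3 and 4 its limma adjusted p was 0.0676.

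Gbp3, a guanylate-binding GTPase, went the other way. Its labelled mutant arrays read 9.50, 9.34, 9.35 and 8.93 and its labelled control arrays 8.98, 8.77, 8.56 and 8.45. Labelled mutant array 4 lay below labelled control array 1, yet within each of the 4 pairs the labelled mutant array was higher (by 0.52, 0.57, 0.79 and 0.48). Gbp3 was 1.51-fold higher (log2 difference 0.59, SE 0.138, limma adjusted p = 0.0303, and 0.00469 with the replicate block). That call was lost without any 1 of labelled mutant arrays 1 to 3 or labelled control arrays 2 to 4 (limma adjusted p 0.0661 to 0.0932).

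Rtp4, an RNA-binding antiviral protein gene, overlapped between groups. It read 8.04, 7.68, 7.44 and 7.39 under the mutant label and 8.16, 8.32, 8.08 and 7.79 under the control label. Labelled mutant array 1 was the only one of its group above a labelled control array. Its log2 difference was -0.45 (SE 0.151, limma adjusted p = 0.116, and 0.0353 with the replicate block).

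Other antiviral effectors were not called. Ifit1, whose protein binds viral RNA caps, had a log2 difference of -0.24 with a 95% interval of -0.60 to 0.13. Its relatives Ifit2 (-0.08, interval -0.43 to 0.27) and Ifit3 (0.01, interval -0.37 to 0.38) had intervals around 0. Mx1 and Mx2, dynamin-like GTPases, differed by -0.04 and -0.10. Mx1 lay below the lower quartile of each of the 8 arrays, and Mx2 below that of 4. Bst2, the tetherin that holds virus particles at the cell surface, differed by -0.14 (interval -0.39 to 0.10).

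**Figure D2:**
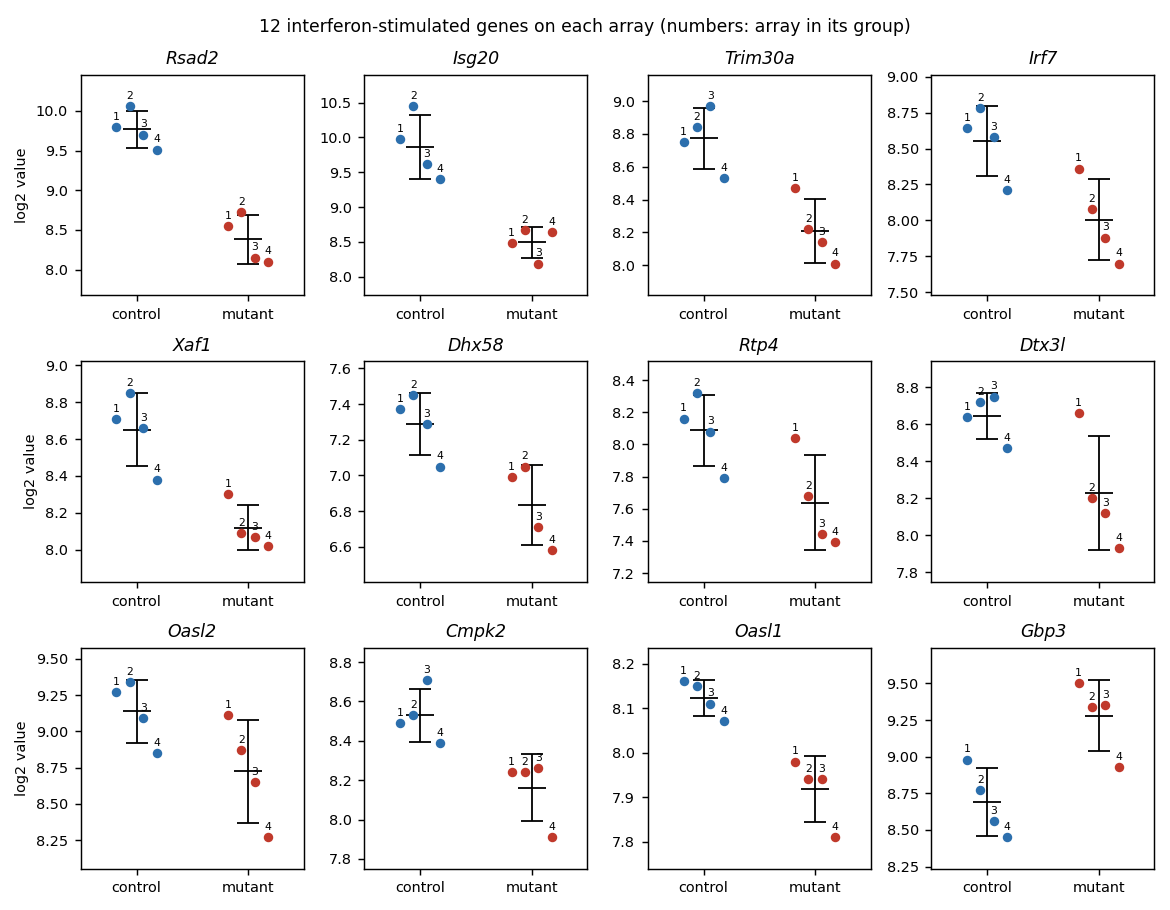
Each panel plots the log2 value (y axis) of 1 gene on the 4 arrays labelled control (blue) and the 4 labelled mutant (red), numbered by array, with group mean and SD in black. Rsad2 and Isg20 show wide gaps between the groups, and in Irf7, Rtp4, Dtx3l and Oasl2 labelled mutant array 1 reaches the labelled control values.

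Of the 4 transcription factors 0 passed without the block. Irf7, the factor that amplifies interferon production, read 8.36, 8.08, 7.88 and 7.70 under the mutant label. Under the control label it read 8.64, 8.78, 8.58 and 8.21. Only labelled mutant array 1 lay above the lowest labelled control array. The log2 difference was -0.55 (SE 0.153, limma adjusted p = 0.0626), and it passed with the replicate block (0.0119) and without labelled mutant array 1 (0.0224). Stat2 and Irf9, the partners that form the ISRE-binding complex, differed by 0.04 (interval -0.23 to 0.30) and 0.01 (interval -0.21 to 0.24). Irf1, the factor nearest to interferon gamma, read 8.96 on labelled mutant array 1 and 8.36, 7.92 and 7.86 on the others, against 8.35 to 8.46 under the control label. A second probe set of Irf1 differed by 0.14, with the opposite sign to the -0.13 of the one used, and neither was called.

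Among the sensors of foreign nucleic acid 1 of 5 was lower. Dhx58 encodes LGP2, a helicase that tunes the RNA sensors RIG-I and MDA5. It read 6.99, 7.05, 6.71 and 6.58 under the mutant label and 7.37, 7.45, 7.29 and 7.05 under the control label. Labelled mutant array 2 and labelled control array 4 met at 7.05 after rounding, and no labelled mutant value exceeded a labelled control value. Dhx58 was 1.37-fold lower (log2 difference -0.45, SE 0.118, limma adjusted p = 0.0469, and 0.00600 with the replicate block). The call was lost without labelled mutant array 3 or 4 or labelled control array 1, 2 or 3 (limma adjusted p 0.0971 to 0.130). The sensors themselves, Ddx58 (RIG-I) and Ifih1 (MDA5), differed by 0.04 and 0.08 and were not called. Zbp1, which senses Z-form nucleic acid, differed by -0.05, and Trim25, a ligase that activates RIG-I, by -0.19 (limma adjusted p = 0.140).

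The oligoadenylate synthetase family makes the second messenger that activates RNase L, though not every member, Oasl1 among them, is an active enzyme. All 5 had negative differences and 0 passed without the block. Oasl1, known to hold back Irf7 translation, read 7.98, 7.94, 7.94 and 7.81 under the mutant label and 8.16, 8.15, 8.11 and 8.07 under the control label. The groups did not overlap, though the gap was small (log2 difference -0.21, SE 0.0548, limma adjusted p = 0.0515, and 0.0470 with the replicate block).

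Oasl2 spread more widely. It read 9.11, 8.87, 8.65 and 8.27 under the mutant label and 9.27, 9.34, 9.09 and 8.85 under the control label. Each labelled mutant array was below its same-numbered partner (pair differences -0.16, -0.47, -0.44 and -0.58), but the groups overlapped. The log2 difference was -0.41 (SE 0.167, limma adjusted p = 0.189, and 0.0229 with the replicate block). Oas1a, Oas2 and Oas3 differed by -0.17, -0.15 and -0.05. A probe set shared by Oas1a and Oas1g differed by -0.46 (limma adjusted p = 0.240 over all probe sets), and reads of these near-identical genes cannot be assigned to either.

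In the ISG15 and ADP-ribosylation group 0 of 4 passed in either fit. Usp18, which strips ISG15 from proteins and blocks signalling at Ifnar2, differed by -0.31 (interval -0.61 to -0.01, limma adjusted p = 0.212). Dtx3l, a ubiquitin ligase that works with Parp9, read 8.66, 8.20, 8.12 and 7.93 under the mutant label and 8.64, 8.72, 8.75 and 8.47 under the control label. Labelled mutant array 1 lay among the labelled control arrays and the other 3 below them all. The log2 difference was -0.42 (SE 0.137, limma adjusted p = 0.109, and 0.00740 without labelled mutant array 1). Parp9 and Parp14, its neighbours on chromosome 16, differed by -0.26 and -0.13. The probe set that names Isg15 together with Gm9706 differed by 0.01 (interval -0.27 to 0.29).

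The antigen-processing genes Psmb8 and Psmb9 (immunoproteasome subunits) and Tap1 (peptide transporter), which lie next to each other on chromosome 17, had positive differences and were not called. Psmb8 read 8.59, 7.61, 6.96 and 7.06 on labelled mutant arrays 1 to 4 and 7.40 to 7.52 on the labelled control arrays. Labelled mutant arrays 1 and 2 were above every labelled control array and labelled mutant arrays 3 and 4 below every one. Tap1 read 9.12, 8.62, 7.99 and 7.67 against 8.0 to 8.37, in the same order. Psmb9 read 9.44, 8.80, 8.41 and 8.51 against 8.49 to 8.63. The probe set shared by Gbp2 and Gbp2b read 9.08, 8.09, 7.49 and 7.22 against 7.68 to 7.99. The mean differences were 0.11 for Psmb8, 0.15 for Tap1 and 0.24 for Psmb9. For Psmb8 and Tap1 they average arrays on opposite sides of the labelled control range.

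The remaining members added little. The 24 members not given array by array under the rule for named genes had log2 differences from -0.31 (Usp18) to 0.24 (Psmb9), 15 negative and 9 positive. Their lowest limma adjusted p was 0.140, and 0 of their 95% intervals reached beyond 1 log2 unit in either direction. Ifi27, a small mitochondrial protein gene, differed by 0.10 and Ifi35 by -0.01.

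The labelled mutant arrays differed among themselves across most of the members. Labelled mutant array 1 was the highest of its group for 28 of 36 members (29.0% of all genes) and labelled mutant array 4 the lowest for 26 (26.8% of all genes). Labelled mutant arrays 1 and 2 both lay above arrays 3 and 4 of their group for 28 members, against 31.3% of all genes. The mean over the 36 members was 8.53, 8.27, 8.08 and 7.97 on labelled mutant arrays 1 to 4 and 8.46, 8.54, 8.42 and 8.24 on labelled control arrays 1 to 4. Labelled mutant array 1 was above the labelled control mean for 22 members and labelled mutant array 4 for 1. Labelled control array 4 was in turn the lowest of its group for 28 members.

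By pair, 14, 27, 31 and 32 of the 36 members were lower under the mutant label in pairs 1 to 4, with median differences of 0.11, -0.23, -0.29 and -0.26. Over all genes the share lower was 42.4%, 44.7%, 45.4% and 53.5%. Pair 1 thus had more members higher than lower, and the other pairs the reverse.

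The number of calls moved with these arrays. Labelled mutant arrays 1 and 2 lay above 3 and 4 for most members. Leaving out either set therefore shifts the median in a direction fixed by that choice. Without labelled mutant arrays 1 and 2 the median log2 difference was -0.36 and 12 members were lower and 0 higher, against 3.24% and 1.59% of all genes. Irf1, Parp14, Dtx3l and Psmb8 were among the 12, and Cmpk2 was not. Without labelled mutant arrays 3 and 4 the median was 0.03, and 2 members were lower (Rsad2 and Isg20) and 2 higher (Gbp3 and Tap1), against 4.44% and 3.39% of all genes. The calls were Rsad2, Isg20, Xaf1 and Trim30a alone, 4 lower and 0 higher, in the fits without labelled control array 2 (against 3.1% and 1.42% of all genes), labelled control array 3 (3.11% and 1.41%) or labelled mutant array 3 (4.04% and 1.93%).

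**Figure D3:**
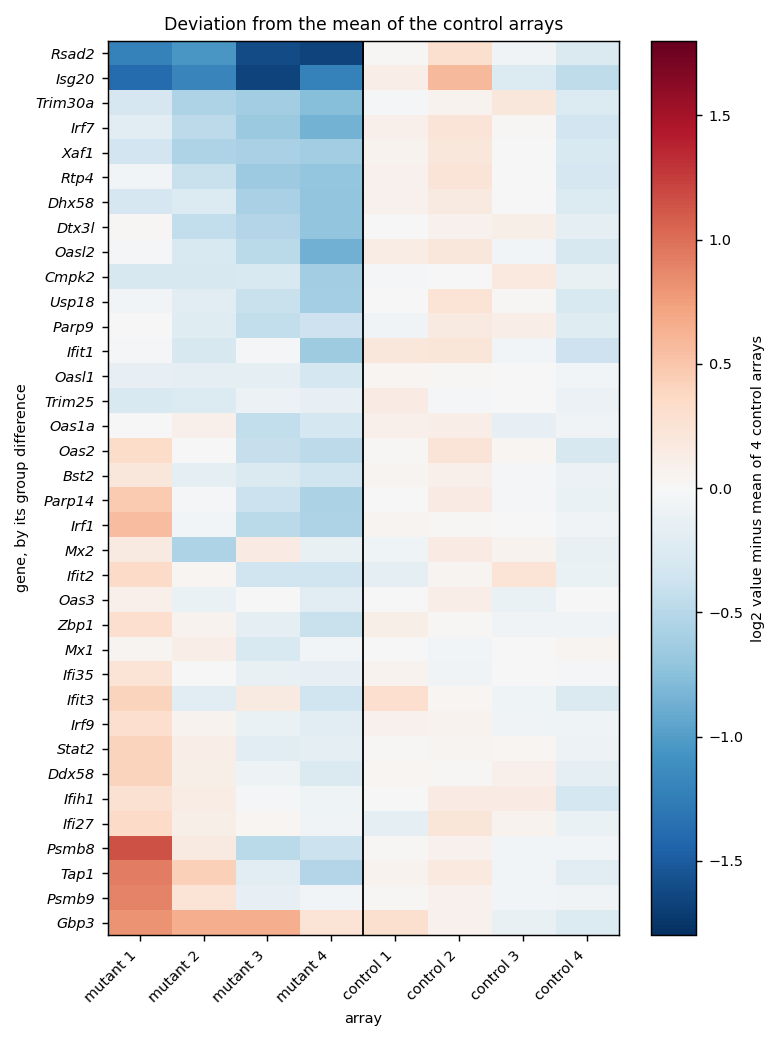
Colour gives the log2 value minus the mean of the 4 labelled control arrays, for each of the 36 genes (rows, by group difference) on each array (columns). Rsad2 and Isg20 are deep blue on all 4 labelled mutant arrays, labelled mutant array 1 is above the labelled control mean for 22 genes, and labelled mutant array 4 is above it only for Gbp3.

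Further genes of the pathway were read in the same fit. Among the 6 receptor genes 2 were lower and 0 higher, against 4.64% and 2.59% of all genes, with a median of -0.24. Ifngr1, a chain of the interferon gamma receptor, read 9.50, 9.55, 9.59 and 9.54 under the mutant label and 10.22, 10.37, 10.42 and 10.24 under the control label. The groups were well apart, and Ifngr1 was 1.70-fold lower (log2 difference -0.77, SE 0.0602, limma adjusted p = 0.000102). Its 4 labelled mutant arrays lay close together. Ifnar2, a chain of the type I receptor, was 1.23-fold lower (10.14 ± 0.0946 against 10.44 ± 0.0827, SD, n = 4 each; limma adjusted p = 0.0238), a call lost without labelled mutant array 2 or 4 or labelled control array 1, 2 or 3 (0.0641 to 0.0744). The replicate block added Ifngr2 (log2 difference -0.31, limma adjusted p = 0.0462), so 3 of the 6 were lower in that fit, against 5.27% of all genes.

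Ligands gave no call. Of 16 measured interferon genes, out of 21 listed, 0 passed. The largest difference was that of Ifne, an epithelial type I interferon (0.17, limma adjusted p = 0.364), and 6 of the 16 lay below the lower quartile on all arrays. Among 10 measured genes of receptor signalling and its brakes, out of 11 listed, 0 passed, with the largest difference in Socs1, a feedback inhibitor (0.12). Among 20 measured genes of nucleic acid sensing and interferon induction, out of 22 listed, 0 passed. The largest difference was that of Sting1, the adaptor of DNA sensing (-0.31, limma adjusted p = 0.137). With the replicate block 1 of the 20, Irf5, was higher (0.29, limma adjusted p = 0.0206), against 3.04% of all genes.

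Further interferon-stimulated genes were read in 2 lists, by the kind of interferon that drives them most, and the difference between the lists was not tested. Of 45 genes listed as leaning to type I interferon 40 were measured. Of these 40, 7 were lower and 0 higher, against 4.64% and 2.59% of all genes. Their median was -0.17. Ube2l6, the enzyme that passes ISG15 on to its targets, read 8.65, 8.60, 8.01 and 8.32 under the mutant label and 10.06, 10.16, 9.39 and 9.71 under the control label. The groups were far apart, and Ube2l6 was 2.71-fold lower (log2 difference -1.44, SE 0.185, limma adjusted p = 0.00184). Phf11d, Ifi203 and Sp100, genes of nuclear proteins, were 1.58-fold, 1.57-fold and 1.37-fold lower, and Ifitm2, Ifitm3 and Helz2 made up the 7. With the replicate block 9 were lower, against 5.27% of all genes, with Ly6e (limma adjusted p = 0.0369) and Ddx60 (0.0145) added. Sp100 lost its call in 6 of the 8 fits that left out 1 array (limma adjusted p 0.0588 to 0.0942).

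Of 35 genes listed as leaning to interferon gamma 24 were measured and 11 were not. Of the 24 measured 0 passed, with a median of 0.10, but the arrays again differed. Their mean was 9.19, 8.83, 8.31 and 8.26 on labelled mutant arrays 1 to 4 and 8.42 to 8.61 on the labelled control arrays. Cxcl11, a chemokine that draws T cells and had the largest difference (0.46, limma adjusted p = 0.174), read 8.11, 7.90, 7.44 and 7.12 against 7.13 to 7.29. Without labelled mutant arrays 1 and 2 the count was 6 lower and 0 higher, against 3.24% and 1.59% of all genes. Without labelled mutant arrays 3 and 4 it was 0 lower and 10 higher, against 4.44% and 3.39%. These counts were added after the data were seen, and their direction follows from which arrays were left out.

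Markers of cell types were read beside these values. Of 15 macrophage and dendritic cell markers 0 passed, and their mean ran from 8.32 to 8.99 under the mutant label (8.99, 8.82, 8.34 and 8.32 on arrays 1 to 4) and from 8.56 to 8.81 under the control label. It was thus higher on labelled mutant arrays 1 and 2 than on 3 and 4, as the module was. With the replicate block 2 of the 15, the myeloid genes Cd68 and Itgam, were lower (limma adjusted p = 0.0334 and 0.0148), against 5.27% of all genes. Of 12 T and natural killer cell markers 0 passed (means 6.64, 6.83, 6.31 and 6.44 against 6.43 to 6.60). Of 6 neutrophil markers 0 passed (6.35, 5.95, 5.86 and 5.89 against 5.82 to 5.92), and of 4 markers of plasmacytoid dendritic cells, a main source of type I interferon, 0 passed (7.06 to 7.23 against 7.02 to 7.11). Among 5 B and plasma cell markers 0 passed, and Jchain, which joins secreted antibodies, read 7.28, 8.60, 5.98 and 5.97 against 5.38 to 5.62. T and natural killer, neutrophil and B and plasma means were also higher on labelled mutant arrays 1 and 2 than 3 and 4. The plasmacytoid mean was not. Jchain weighs heavily in the B and plasma mean (6.59, 6.98, 6.2 and 6.33), and the order of that mean was not read without it. The neutrophil means of labelled mutant arrays 2 and 4 lay close together (5.95 and 5.89).

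All 12 endothelial markers were called lower under the mutant label, against 4.64% of all genes. Their median difference was -0.66, with means of 10.06 to 10.16 against 10.71 to 10.86. That gap was nearly equal on all 4 labelled mutant arrays. Of 10 tubule and podocyte markers, which define the tissue, 0 passed (means 12.08 to 12.23 against 11.88 to 12.04). With the replicate block 2 of the 10 were higher, against 3.04% of all genes. In these lists 2 T and natural killer, 2 B and plasma, 2 neutrophil and 1 plasmacytoid marker lay below the lower quartile on all arrays. The part of any of these cell types in the module's values was not tested.

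**Figure D4:**
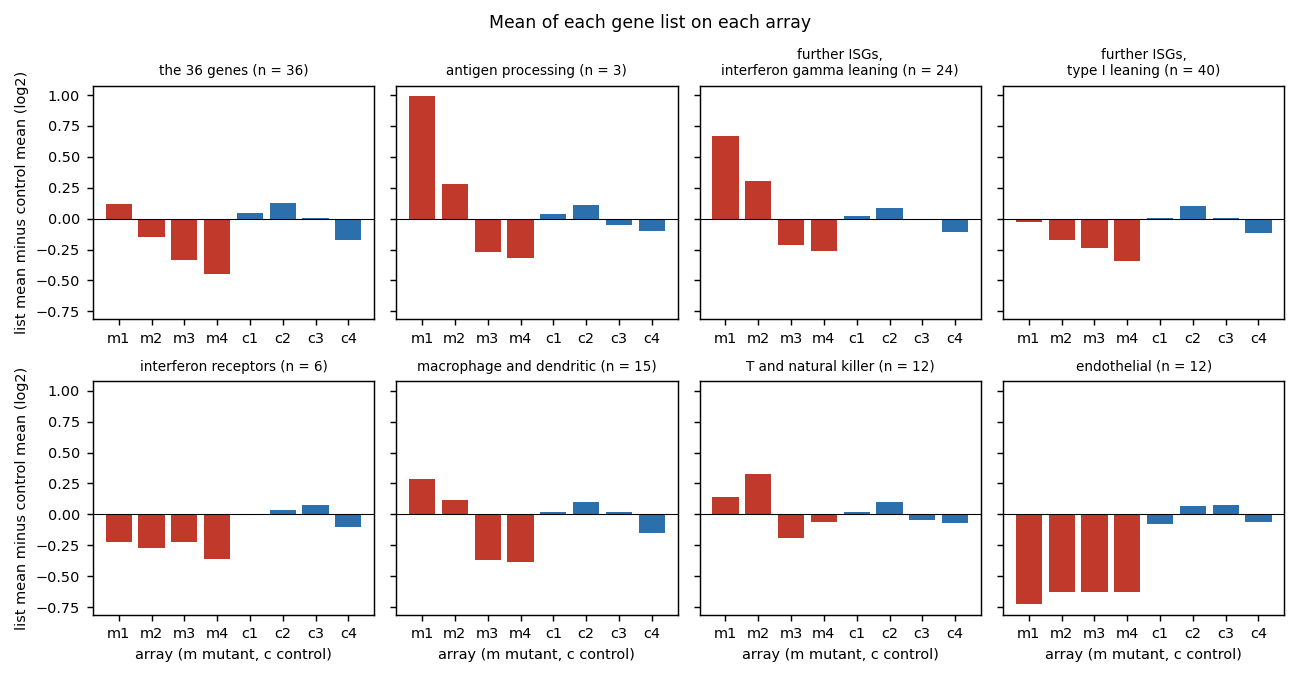
Bars give the mean log2 value of a gene list on each array minus its mean over the 4 labelled control arrays (y axis), for labelled mutant arrays m1 to m4 (red) and labelled control arrays c1 to c4 (blue). Antigen-processing, gamma-leaning, macrophage, and T and natural killer lists are positive on m1 and m2 and negative on m3 and m4. Receptor and endothelial lists are negative on all 4.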

How the data were processed

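RNA was isolated with TRIzol and RNeasy columns and hybridised as biotin-labelled cRNA to Affymetrix arrays, per the labels' protocols. The values are the authors' deposited log2 table (35556 probe sets, 8 arrays). Of tools, only limma is named in the submitters' processing notes, with no version. Background correction, normalization and build are not given in the sources used here. No value was transformed or filtered, and the number of arrays limits the precision.

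Probe sets were named from the platform annotation, updated to RefSeq symbols of GRCm38.p6: 21789 named 1 gene, 1621 several and 12146 were not listed. Labelled mutant minus labelled control was fitted over all 19936 genes with limma 3.58.1 in R 4.3.3 (lmFit, eBayes, Benjamini-Hochberg), checked on simulated data. Probe sets naming several genes were read from a fit over all probe sets, which called 4.44% of them. P-values measure the spread between these mice.

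Deviations from group means correlated at 0.138, 0.153, 0.295 and 0.175 between same-numbered arrays. Between arrays of different numbers the correlations ran from -0.193 to 0.111. The pairing by number comes from the values, since the labels do not state it, and blocked values stand where they change a call.

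Members, gene lists and tests were chosen with earlier results of these data known. Members were given array by array if called with or without the block or not overlapping, then by unadjusted p up to 12. Further lists gave up to 4 called genes by size, or the gene with the largest difference.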

Additional observations from a re-analysis of the deposited data

Results flagged for a closer look

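In 3 of 102 groups of 4 arrays 1 array lay far from the other 3, by Dixon's criterion, which chance meets in about 1 in 20. For Cmpk2 labelled mutant array 4 read 7.91 and the other 3 read 8.24 to 8.26. For Phf11d labelled control array 4 read 8.08 and the others 8.37 to 8.43. For Cxcl11 labelled control array 1 read 7.29 and the others 7.13 to 7.15.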

How the results depend on the processing

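Of the 7 members called, Rsad2 and Isg20 kept direction and call in all 17 alternatives, Xaf1 and Trim30a in 16, Dhx58 in 11, Gbp3 in 9 and Cmpk2 in 8; the directions of these 7 held in every alternative. The count of 7 called members became 11 with the replicate block, 12 without labelled mutant arrays 1 and 2 and 4 without labelled mutant arrays 3 and 4. It ran from 4 to 8 when 1 array was left out. With arrays weighted by limma it was 10, all lower, with 1637 of 19936 genes called. Gbp3 was not called there (limma adjusted p = 0.0619). Among the upper 60% of probe sets by mean it was 9 of 33, with 1617 of 13491 genes called. The median difference of the members was -0.14, with a range of -0.17 to -0.05 without 1 array other than labelled mutant array 1, -0.23 without that array, -0.36 without labelled mutant arrays 1 and 2 and 0.03, the opposite sign, without labelled mutant arrays 3 and 4. Quantile normalization moved it to -0.11 and raised the share of higher calls over all genes from 35.9% to 44.3%. There too 6 members were lower and 1 higher, with 878 of 19936 genes called lower and 697 higher. The difference of Vhl kept its sign but lost its call with the replicate block (0.29, limma adjusted p = 0.0558) and without labelled mutant arrays 1 and 2 (0.35, 0.0661) or 3 and 4 (0.23, 0.123); leaving out 1 array gave 0.25 to 0.35, and the call was lost in 6 of these 8 fits (limma adjusted p 0.0785 to 0.114), all but those without labelled mutant array 1 or labelled control array 4. The difference of Socs1 turned to -0.02 without labelled mutant arrays 1 and 2. The 1442 genes called over all genes became 962 without labelled mutant arrays 1 and 2, 1561 without labelled mutant arrays 3 and 4, and 902 to 1368 without 1 array. The counts for the further lists under these settings were added after the data were seen; for receptor genes they ran from 1 to 4. The direction of the members' median without labelled mutant arrays 1 and 2 or 3 and 4 follows from which arrays were left out. Why the arrays differ, and the cause of the other changes, was not tested. Mx1 lay below the lower quartile of all 8 arrays, so its signal over background limits what can be read from it. Mx2, below the lower quartile on 4 of the 8, shares this limit in part.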
